A study of Mus musculus with 19 samples.

Results

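The circadian clock genes described here were Arntl (also called Bmal1), Npas2, Per1, Per2, Per3, Cry1, Dbp, Nr1d1, Nr1d2 and Bhlhe41. They were taken by gene symbol and made up 10 of the 35274 genes in the count tables. The list was chosen with earlier results of these data known. All 10 were found and all 10 passed the filter on low counts. RNA was measured in hepatocytes from mouse liver, in 3 groups of 5 samples, taken as biological replicates as titled. Every animal carried the genotype OPN-CreERT2;Rosa26R-mT/mG. In this genotype a tamoxifen-inducible Cre recombinase under the osteopontin (OPN) promoter switches the mT/mG reporter from red tdTomato to green fluorescence, permanently, in cells that express osteopontin at the time of induction and in their descendants. The CTL group held native hepatocytes from healthy liver, labelled Control. RED samples were native hepatocytes that had kept tdTomato, from livers labelled Chronic injury. GREEN samples were the hepatocytes labelled DR-derived, likewise from livers with chronic injury; the labels do not spell out DR. GREEN 3 and GREEN 4, from different experiments, carried the same code number in their library names. Whether they came from the same animal is not given, so the GREEN samples may not all be independent. The labels give neither the kind and length of the injury, the age and sex of the animals, the animal behind each sample nor the hour of day at which liver was taken.

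Each of 19 libraries held between 22442607 and 44177627 estimated counts, and 4 samples had a library in both of the study's experiments. The main tests used 1 library per sample, 2 of experiment 1 and 3 of experiment 2 in each group. The scaling factors of TMM moved with the groups, at 0.62 to 0.91 in CTL, 0.79 to 1.08 in RED and 1.14 to 1.49 in GREEN. Albumin RNA, which defines hepatocytes, was abundant in every sample, with 65365 to 133645 CPM (counts per 1000000 after TMM scaling) in CTL, 46150 to 78582 in RED and 25225 to 55743 in GREEN.

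The clock of mammalian cells is a feedback loop of transcription factors. BMAL1 (from Arntl) pairs with CLOCK or its relative NPAS2, binds E-box sequences and switches on the Per and Cry genes, whose proteins return to the nucleus and block that pair. The same pair drives Nr1d1 and Nr1d2, whose proteins REV-ERB alpha and beta repress Arntl, Npas2 and Cry1 through ROR elements, and drives Dbp, an output factor that acts through D-boxes. In liver the RNA of Arntl and Npas2 peaks at about the opposite time of day to that of Dbp, Nr1d1 and Per3, so their levels depend on the hour of collection.

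The promoter stretches below show which of these elements lie next to the start of the members, because it is through these elements that the proteins of the loop act on each other's genes. They come from RefSeq (GRCm38.p6), which gave windows of 250 bases before to 50 bases after a transcription start. Windows were present for 9 of the 10 members, 11 windows in all, and Per2 had none. Searching both strands for the E-box CACGTG gave a match in 7.15% of the 32851 windows of all genes and in Per1, Bhlhe41 and Cry1 among the members. The variant E-box CACGTT matched in 4.68% of windows, among them those of Cry1 and Nr1d1. The D-box TTATGNAA matched in 3.38% of windows, among them 1 of Per3, which held 2 copies, and 1 of Per1. Of the ROR element cores, TAGGTCA matched in 2.61% of windows and in Arntl, and TGGGTCA in 3.98% of windows and in no member. Each stretch is written 5′ to 3′ on the strand of the gene with the matched letters in capitals. AACGTG is CACGTT read on the other strand.
Per1 (chr11:69098756-69098815, plus strand): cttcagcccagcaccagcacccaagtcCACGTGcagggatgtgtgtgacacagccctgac
Bhlhe41 (chr6:145865541-145865600, minus strand): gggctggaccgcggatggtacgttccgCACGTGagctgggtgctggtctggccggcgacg
Cry1 (chr10:85185082-85185141, minus strand): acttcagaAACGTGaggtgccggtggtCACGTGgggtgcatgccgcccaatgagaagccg
Nr1d1 (chr11:98775378-98775437, minus strand): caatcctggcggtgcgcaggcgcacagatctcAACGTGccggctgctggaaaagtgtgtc
Per3 (chr4:151044806-151044880, minus strand): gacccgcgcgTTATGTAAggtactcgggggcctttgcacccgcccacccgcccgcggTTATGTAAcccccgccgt
Arntl (chr7:113207532-113207556, plus strand): ggcagaaagTAGGTCAgggacggag
The Arntl stretch lies just after the RefSeq start of its window, and the 5 others lie before theirs. These starts can differ from the gene spans given below, which come from GENCODE M21. The Per1 stretch lies inside the Per1 span, and the Bhlhe41 stretch reaches into the Bhlhe41 span. A match is a description of the letters in these windows only.

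Across the 3 comparisons the clock genes that edgeR called were Bhlhe41, lower in both populations of injured liver than in CTL, and Per1, higher in GREEN than in CTL. The Bhlhe41 calls did not hold by library totals or by limma-voom. Several members had wide standard errors, so a member that was not called is not thereby shown to be unchanged. Between RED and CTL 1 of 10 members passed the threshold (Benjamini-Hochberg adjusted p under 0.05 in edgeR's quasi-likelihood test over all genes), where 16.2% of all genes tested did. DESeq2 called 4 members there, Bhlhe41, Dbp, Per3 and Nr1d2, all lower in RED, and limma-voom called 0. Between GREEN and RED no member passed, where 12.9% of all genes did, and Per1 was the only member with an unadjusted p under 0.05; DESeq2 and limma-voom also called 0 members there. Between GREEN and CTL 2 of 10 members passed, where 48.1% of all genes did; DESeq2 called the same 2 and limma-voom called Per1. The members' median log2 fold changes were -0.41, 0.41 and -0.15 in the 3 comparisons, beside 0.05, -0.02 and 0.11 over all genes tested. GREEN versus CTL and RED versus CTL share the CTL samples, and GREEN versus RED shares samples with both. Within a group, several members varied from sample to sample more than most genes.

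**Figure D1:**
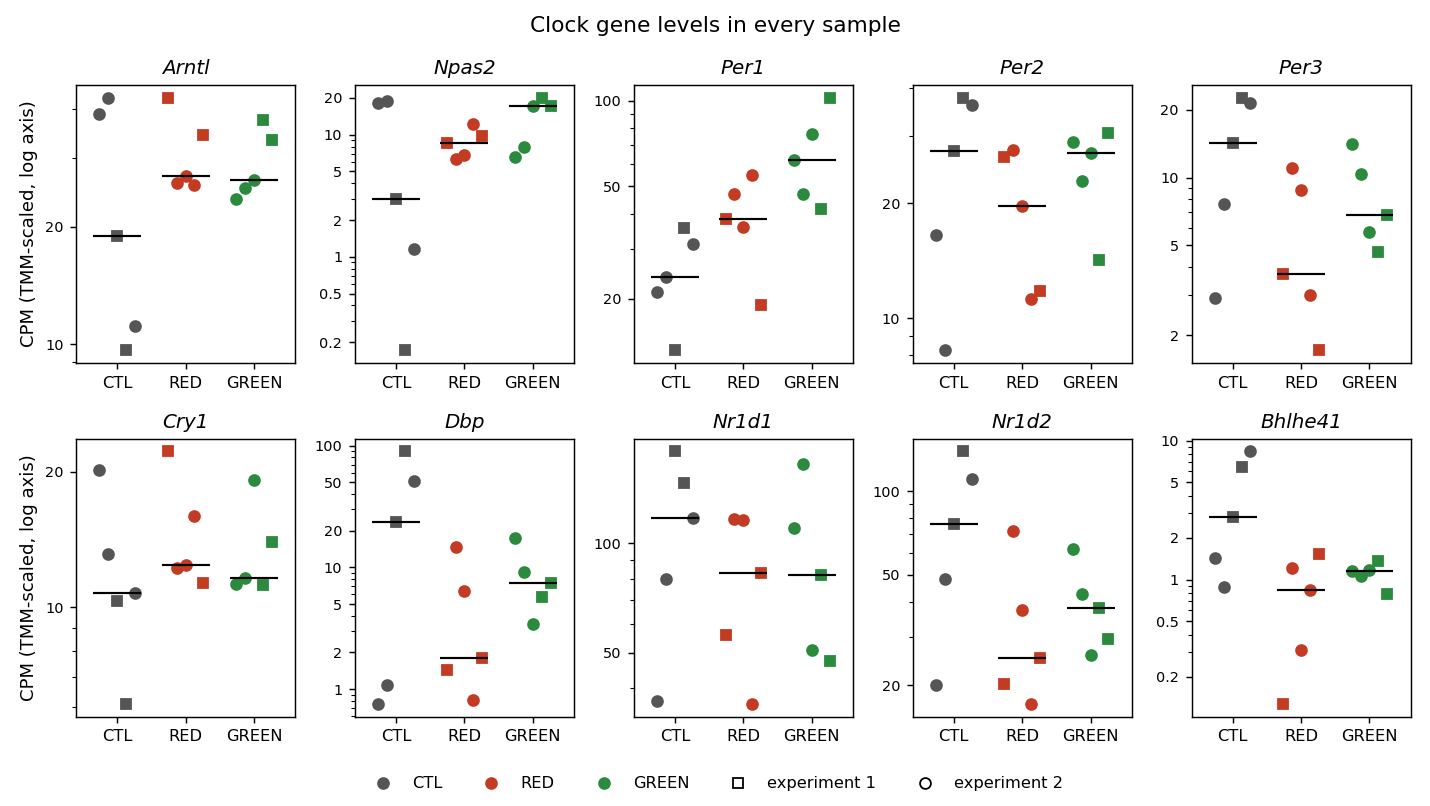
Level of each clock gene in every sample, in CPM scaled by TMM, on a log axis that differs between panels. Points are samples, squares from experiment 1 and circles from experiment 2, and bars are group medians; Per1 in GREEN lies above every CTL sample, and Dbp in CTL runs from 0.754 to 90.1 CPM.

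Arntl, on chromosome 7 (113207465 to 113314126, plus strand, GRCm38), encodes the indispensable activator of the loop. Its level was 38.8, 42.8, 18.9, 9.63 and 11.1 CPM in CTL 1 to CTL 5. In RED 1 to RED 5 it was 42.8, 25.9, 26.9, 25.6 and 34.3 CPM, and in GREEN 1 to GREEN 5 it was 23.6, 25.2, 26.4, 37.4 and 33.3 CPM. The 10 samples of injured liver lay within the range of the 5 CTL samples, which was 4.44-fold wide against 1.67-fold in RED and 1.59-fold in GREEN. The log2 fold change was 0.35 in RED versus CTL (standard error 0.38, adjusted p = 0.627 by edgeR), -0.09 in GREEN versus RED (0.37, adjusted p = 0.895) and 0.25 in GREEN versus CTL (0.37, adjusted p = 0.603).

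Npas2, on chromosome 1 (39193731 to 39363236, plus strand), encodes the relative of CLOCK that can replace it as partner of BMAL1. In CTL it was at 18.16 and 18.97 CPM in CTL 1 and CTL 2, at 2.99 in CTL 3, and at 0.171 and 1.15 in CTL 4 and CTL 5. The lowest of these samples held 3 counts. RED samples stood at 8.53, 6.31, 6.78, 12.2 and 9.84 CPM, and GREEN samples at 6.60, 7.94, 17.2, 20.1 and 17.1 CPM. All RED and GREEN samples lay above the lowest 3 CTL samples, and only GREEN 4 lay above the highest. No comparison passed, with log2 fold changes of 0.20 (standard error 0.82) in RED versus CTL, 0.71 (0.79) in GREEN versus RED and 0.90 (0.85) in GREEN versus CTL.

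The repressors of the loop did not move alike. Per1 (chromosome 11, 69095217 to 69109960, plus strand) encodes a period protein whose gene also answers quickly to hormones and signals from outside the cell. Its level was 21.2, 23.9, 13.2, 35.7 and 31.3 CPM in CTL, 38.4, 46.8, 35.7, 54.9 and 19.1 CPM in RED, and 62.03, 46.9, 76.5, 41.7 and 102.6 CPM in GREEN. Every GREEN sample was above every CTL sample, the only member and comparison in which groups did not overlap. How many of all genes had no overlap there was not counted, and 48.1% of them were called in that comparison. Per1 rose in GREEN over CTL by 1.41 on the log2 scale (standard error 0.33, edgeR adjusted p = 0.00321), as a member of the 29.5% of all genes called higher there. It was called in all 15 fits that left out 1 sample (log2 1.11 to 1.62), and by library totals the value was 2.20. In RED versus CTL its log2 fold change was 0.62 (0.32, adjusted p = 0.242) and in GREEN versus RED 0.78 (0.32, adjusted p = 0.118), the latter passing by library totals (1.26, adjusted p = 0.0162) and with the experiment 1 libraries of the samples that had a pair (1.11, adjusted p = 0.0309). Library totals moved the median of all genes to 0.42 in GREEN versus RED and to 0.83 in GREEN versus CTL. In GREEN versus RED they called 4329 of 16387 genes, 99.1% of these higher. The experiment 1 libraries called 4141 of 15586 there.

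Per2 (chromosome 1, 91415982 to 91459324, minus strand), the period gene most needed for rhythm, stood at 16.5, 8.23, 27.4, 37.8 and 36.2 CPM in CTL. RED samples held 26.4, 27.6, 19.6, 11.2 and 11.8 CPM and GREEN samples 28.9, 22.8, 27.0, 14.2 and 30.5 CPM. The 3 groups overlapped over most of their range, and the log2 fold changes were -0.36 (standard error 0.39) in RED versus CTL, 0.36 (0.39) in GREEN versus RED and -0.01 (0.39) in GREEN versus CTL, none past the threshold.

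Per3 (chromosome 4, 151003652 to 151044665, minus strand), a period gene that is dispensable for the core loop, had 2 copies of the D-box in its window. Its level was 2.91, 7.63, 14.3, 22.6 and 21.5 CPM in CTL, 3.73, 11.1, 8.77, 3.01 and 1.71 CPM in RED, and 14.1, 10.4, 5.76, 4.67 and 6.83 CPM in GREEN. CTL 3, CTL 4 and CTL 5 were above every RED and GREEN sample, while CTL 1 was below all 5 GREEN samples. The log2 fold change was -1.43 in RED versus CTL (standard error 0.59, adjusted p = 0.134) and -0.84 in GREEN versus CTL (0.57, adjusted p = 0.249). By DESeq2 the RED value was -1.49 and passed (adjusted p = 0.0383). Both passed in edgeR when CTL 1 was left out, at -1.87 (adjusted p = 0.0248) and -1.29 (adjusted p = 0.0457).

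Cry1 (chromosome 10, 85131700 to 85185064, minus strand) encodes a cryptochrome, the strongest repressor of the loop, and its gene answers both to E-boxes and to ROR elements. It held 20.2, 13.1, 10.4, 6.10 and 10.8 CPM in CTL, 22.2, 12.2, 12.5, 15.9 and 11.3 CPM in RED, and 11.3, 11.6, 19.1, 11.2 and 14 CPM in GREEN. Over the 15 samples it had the lowest residual SD of the members (0.47 on the log2 scale, after removing group and experiment means), although within RED and within GREEN the range of Arntl was narrower. Of the 10 samples of injured liver 8 lay between 11.2 and 15.9 CPM. The log2 fold changes of 0.33 (RED versus CTL, standard error 0.28), -0.16 (GREEN versus RED, 0.28) and 0.17 (GREEN versus CTL, 0.28) did not pass. By library totals the GREEN versus CTL value was 0.88 and passed in edgeR (adjusted p = 0.0256). The median of all genes tested was 0.83 there.

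Of the REV-ERB genes, Nr1d1 was the most abundant member per length of transcript in each group, and Nr1d2 came next in CTL but behind Per1 in RED and GREEN. Per kilobase of exon, Nr1d1 averaged 36.4, 26.6 and 29.7 CPM in CTL, RED and GREEN and Nr1d2 14.6, 6.34 and 7.32. Per1 averaged 4.45, 6.92 and 11.7, whereas Bhlhe41, the lowest, averaged 0.595, 0.119 and 0.165. Nr1d1 (chromosome 11, 98767932 to 98775333, minus strand) was at 36.7, 79.7, 179.6, 146.4 and 117.5 CPM in CTL, 56.1, 117.0, 116.4, 36.1 and 83.1 CPM in RED, and 110.6, 165.3, 51.02, 82.0 and 47.5 CPM in GREEN. The groups overlapped almost fully, and log2 fold changes were between -0.45 and 0.16 with standard errors of 0.45 to 0.47. Its exons share 263 bases with Thra on the opposite strand, and the labels do not say whether counting used strand.

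Nr1d2 (chromosome 14, 18204054 to 18239127, minus strand) stood at 20.01, 48.2, 76.4, 139.5 and 110.9 CPM in CTL, 20.2, 71.8, 37.4, 17.2 and 25.02 CPM in RED, and 61.95, 42.8, 25.8, 37.9 and 29.4 CPM in GREEN. CTL 3, CTL 4 and CTL 5 were again above all RED and GREEN samples and CTL 1 was near the bottom. The log2 fold change was -1.23 in RED versus CTL (standard error 0.51, adjusted p = 0.129) and -1.02 in GREEN versus CTL (0.50, adjusted p = 0.106). By DESeq2 the RED value was -1.27 and passed (adjusted p = 0.0482). In edgeR it passed without CTL 1 (-1.625, adjusted p = 0.0237) and without RED 2 (-1.65, adjusted p = 0.0293), and the GREEN value passed without CTL 1 (-1.43, adjusted p = 0.0154).

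Dbp (chromosome 7, 45705088 to 45710203, plus strand) encodes the D-box activator that carries the rhythm to many liver enzymes, and its RNA has among the widest daily swings known in liver. CTL 1 and CTL 2 held 0.754 and 1.07 CPM, from 29 and 41 counts, and CTL 3, CTL 4 and CTL 5 held 23.7, 90.1 and 51.3 CPM. RED samples held 1.44, 14.8, 6.42, 0.812 and 1.79 CPM and GREEN samples 17.5, 9.17, 3.42, 5.76 and 7.45 CPM. The CTL samples thus spanned 120-fold, RED 18.2-fold and GREEN 5.12-fold, and all samples of injured liver fell inside the CTL range. The fitted differences were as large as any among the members but so were their errors: -2.80 in RED versus CTL (standard error 1.23, adjusted p = 0.158), 0.80 in GREEN versus RED (1.09, adjusted p = 0.659) and -2.01 in GREEN versus CTL (1.15, adjusted p = 0.166). By DESeq2 the RED versus CTL value was -2.90 and passed (adjusted p = 0.0178). The exons of Dbp share 539 bases with Sphk2 on the opposite strand, whose medians were 56.9, 32.8 and 27.3 CPM in CTL, RED and GREEN; the part of this in the Dbp counts was not tested.

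Bhlhe41 (chromosome 6, 145858243 to 145865558, minus strand) encodes DEC2, a repressor that competes for E-boxes. It was at 1.43, 0.888, 2.80, 6.50 and 8.38 CPM in CTL, at 0.127, 1.22, 0.311, 0.836 and 1.52 CPM in RED, and at 1.16, 1.06, 1.16, 1.36 and 0.784 CPM in GREEN. CTL 3, CTL 4 and CTL 5 were above every sample of injured liver, while CTL 1 and CTL 2 were inside their range. Bhlhe41 fell by 2.30 on the log2 scale in RED versus CTL (standard error 0.67, edgeR adjusted p = 0.0292) and in GREEN versus CTL its log2 fold change was -1.84 (0.65, adjusted p = 0.0318), beside 18.6% of all genes called lower in the latter. Both calls hung on few samples and low counts (3 in RED 1 and 13 in RED 3). The RED call ended without CTL 4 (-2.10, adjusted p = 0.0756), CTL 5 (-1.65, 0.136), RED 3 (-2.10, 0.0734) or RED 4 (-2.40, 0.0570). The GREEN call ended without CTL 4 (-1.66, adjusted p = 0.0721), CTL 5 (-1.19, 0.163), GREEN 2 (-1.84, 0.0544), GREEN 3 (-1.83, 0.0641), GREEN 4 (-1.90, 0.0610) or GREEN 5 (-1.68, 0.0844), and both ended by library totals (adjusted p = 0.0605 and 0.163) and by limma-voom (0.0859 and 0.143). The gene shares 1280 exon bases with the opposite-strand gene Gm43909, for which no value was used here.

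**Figure D2:**
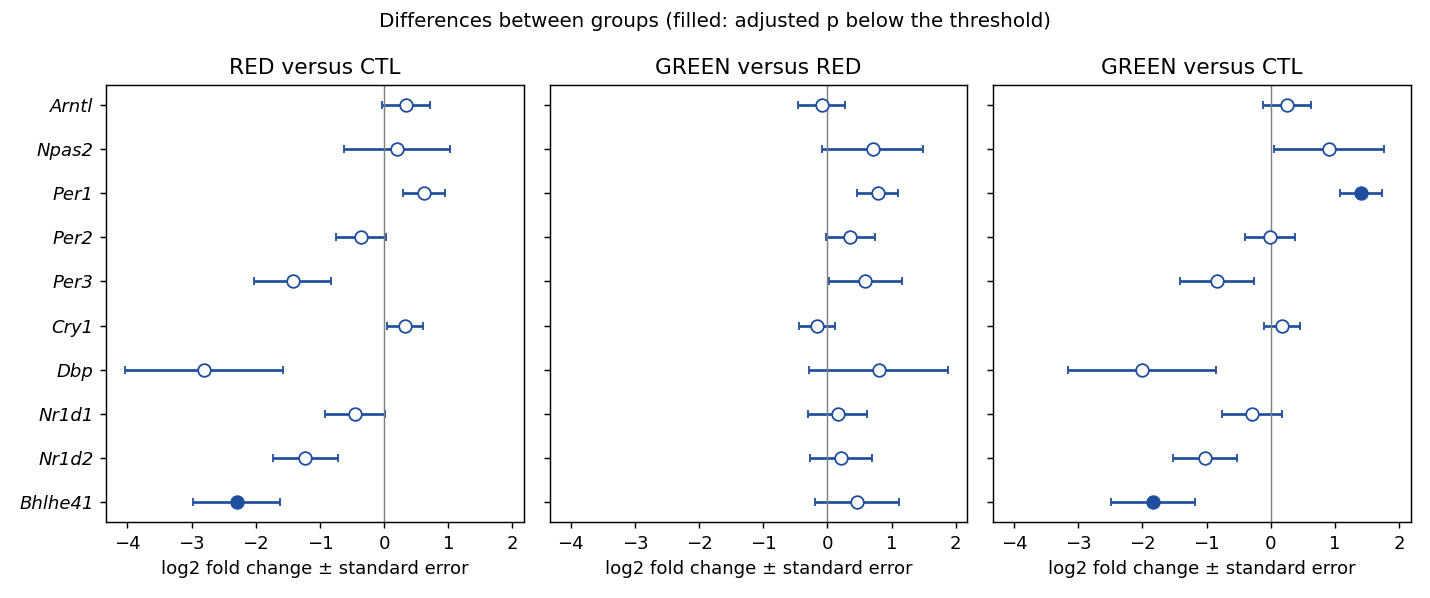
Log2 fold change of each clock gene in the 3 comparisons, with its standard error, from the fit to 15 samples. Filled points passed the threshold; these were Bhlhe41 in RED versus CTL (-2.30) and, in GREEN versus CTL, Bhlhe41 (-1.84) and Per1 (1.41).

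The samples fell into 2 experiments with different library kits (TruSeq Stranded mRNA in experiment 1, KAPA RNA HyperPrep with RiboErase in experiment 2), and the members' differences were not alike in both. A fit of 1 experiment alone used all libraries of that experiment, while the interaction below kept 1 library per sample. Experiment 1 held CTL 3, CTL 4, CTL 5, RED 1 to RED 5, GREEN 4 and GREEN 5. Experiment 2 held CTL 1, CTL 2, CTL 5, RED 2 to RED 4 and GREEN 1 to GREEN 3. CTL 5, RED 2, RED 3 and RED 4 thus entered both fits, which were not independent. In experiment 1 alone, with CTL 3, CTL 4 and CTL 5 as controls, 4 members passed in RED versus CTL, where 13.3% of all genes did. Arntl rose there by 1.34 on the log2 scale (standard error 0.25, adjusted p = 0.0103), and Per3 fell by 1.93, Nr1d2 by 1.59 and Bhlhe41 by 2.68. In experiment 2 alone, with CTL 1, CTL 2 and CTL 5 as controls, edgeR called 0 of the 10 (7.18% of all genes passed, 2 members had an unadjusted p under 0.05, and the lowest adjusted p was 0.0728, for Per1). The value for Arntl there was -0.24. GREEN versus CTL gave 5 members in experiment 1 (50.3% of all genes), with Arntl (1.498), Npas2 (3.95) and Per1 (1.72) higher and Per3 (-1.62) and Nr1d2 (-1.62) lower. In experiment 2 it gave Per1 alone (1.28, adjusted p = 0.00838), where 20.7% of all genes passed. The difference between the experiments itself, tested as an interaction in edgeR, passed for no member in any comparison; Arntl and Npas2 had an unadjusted p under 0.05 in both comparisons with CTL, and Arntl had a difference of -1.67 in RED versus CTL (edgeR adjusted p = 1.000). The 2 lowest Dbp levels of the CTL group, in CTL 1 and CTL 2, were both measured in experiment 2, so that experiment and these animals cannot be told apart in the interaction.

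The kits themselves could be compared in CTL 5, RED 2, RED 3 and RED 4, which had a library in each experiment. Arntl differed by 0.03 ± 0.08 on the log2 scale (mean of experiment 2 minus experiment 1 ± SD, n = 4), Nr1d1 by 0.05 ± 0.06 and Nr1d2 by 0.08 ± 0.03. Per1 was higher with the experiment 2 kit in all 4 samples, by 0.57 ± 0.18, and so were Npas2 (0.77 ± 0.35), Per2 (0.33 ± 0.05) and Cry1 (0.25 ± 0.13). Dbp read -0.30 ± 0.35, with CTL 5 at 75.3 CPM in experiment 1 and 49.8 CPM in experiment 2. Beside these shifts, the residual SD between samples on the log2 scale was 2.22 for Dbp, 1.73 for Npas2, 0.715 for Per2, 0.47 for Cry1 and 0.56 for Per1, the last about the size of its kit shift.

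**Figure D3:**
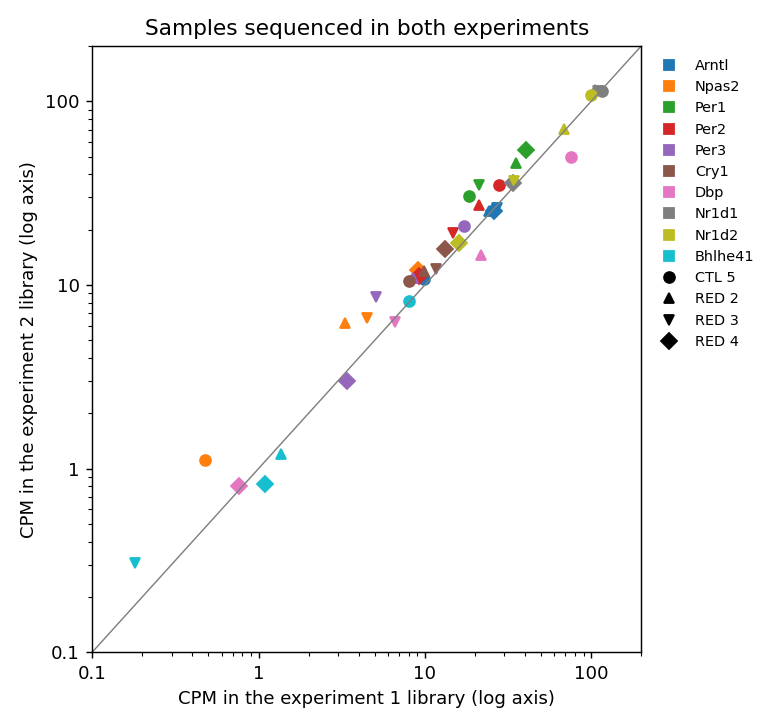
CPM of the 10 clock genes in the experiment 1 library (x, log axis) and the experiment 2 library (y, log axis) of the 4 samples that had both, with the line of equal values. Colours are genes and symbols are samples; Per1 lies above the line in all 4 samples, by 0.57 on the log2 scale on average.

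Spread within groups differed widely among the clock genes. After removing group and experiment means, the median residual SD of the 10 members was 0.86 on the log2 scale, beside 0.44 over the 16387 genes tested. Dbp ranked 186 and Npas2 431 from the top, so that 1.13% and 2.62% of genes varied more, followed by Bhlhe41 (SD 1.21, 11.4% of genes higher), Per3 (1.06), Nr1d2 (0.89) and Nr1d1 (0.83). Cry1 (0.47) and Per1 (0.56) were near the middle of all genes. Of the 5 CTL samples, CTL 1 and CTL 2 were high in Arntl and Npas2 and low in Dbp, CTL 4 and CTL 5 were the reverse, and CTL 3 lay between.

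**Figure D4:**
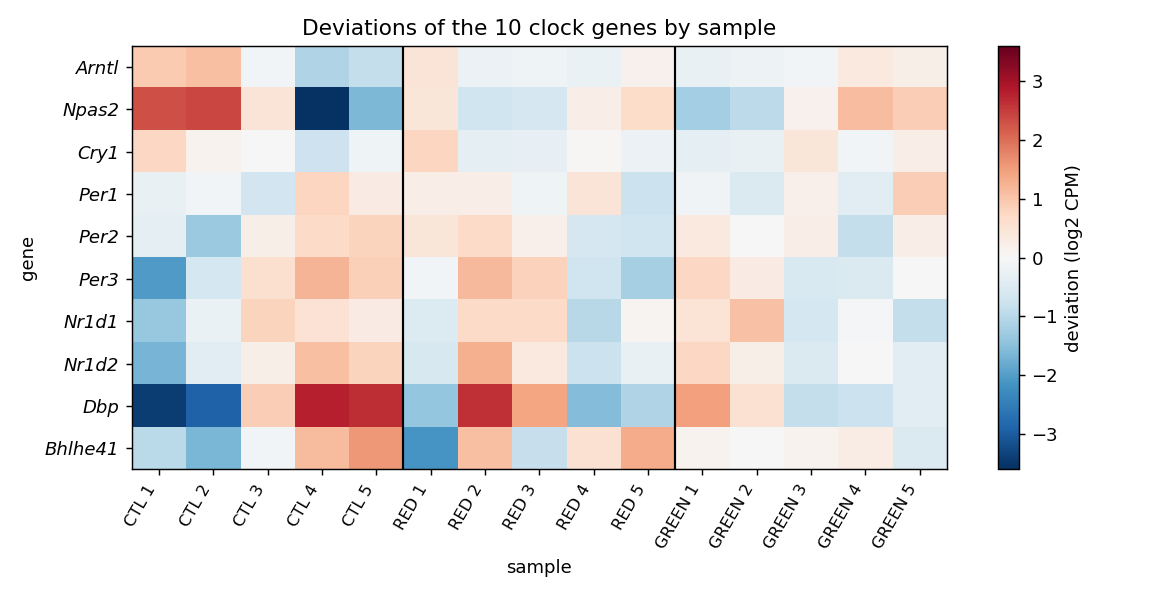
Deviation of each sample from its group and experiment means for the 10 clock genes, in log2 CPM, red above and blue below the mean, with samples in columns and groups divided by lines. CTL 1 and CTL 2 are high in Arntl and Npas2 and low in Dbp, CTL 4 and CTL 5 the reverse; Dbp reaches -3.41 in CTL 1 and 2.80 in CTL 4.

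The samples' deviations in Arntl were compared with those in each other member, because the activator and its targets are known to peak at opposite times. Over the 15 samples Arntl went with Npas2 (Pearson r = 0.938, permutation p = 1.0e-05, the smallest that 100000 permutations can give, adjusted over 9 relations 9.0e-05; Spearman rho = 0.914, permutation p = 1.0e-05). It went against Dbp (r = -0.871, permutation p = 7.0e-05, adjusted 3.1e-04; rho = -0.789, permutation p = 7.7e-04). The values for Per3 (r = -0.737, permutation p = 0.00166), Nr1d2 (-0.732, p = 0.00197) and Bhlhe41 (-0.729, p = 0.00200) each had an adjusted permutation p of 0.0036, with rho of -0.700, -0.693 and -0.679. Per2 was at r = -0.692 (permutation p = 0.00418, adjusted 0.0059, rho -0.589), Cry1 at 0.691 (permutation p = 0.00459, adjusted 0.0059, rho 0.732) and Nr1d1 at -0.531 (permutation p = 0.0423, adjusted 0.0476, rho -0.500). Per1 did not pass (r = -0.344, permutation p = 0.210, rho -0.336). In all, 8 of 9 relations passed by Pearson and 7 by Spearman. Among the 16386 other genes tested, Npas2 ranked 1 and Cry1 222 in likeness to Arntl by r. From the opposite end Dbp ranked 12 and Nr1d1 776, so values like those of Cry1 and Nr1d1 were also reached by many other genes. The share of all genes that would pass was not counted.

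These relations rested on the CTL samples. Without CTL 2 and CTL 1, the samples farthest from the median of Arntl, 6 of 9 passed, with Npas2 at r = 0.900 and Dbp at -0.770. The group means were not fitted anew there. CTL 3, CTL 4 and CTL 5 thus kept deviations of -0.112, -1.083 and -0.852 in Arntl and of 0.872, 2.799 and 2.652 in Dbp. Among the 10 RED and GREEN samples alone, in an alternative added after the data were seen, none of the 9 passed: Npas2 was at r = 0.113 (permutation p = 0.753), Dbp at -0.229 (p = 0.528) and Per3 at 0.086 (p = 0.813), and the lowest adjusted permutation p was 0.211 for Cry1 (r = 0.642) and Bhlhe41 (r = -0.683). Within experiment 2 (n = 9) 4 of 9 passed by an exact permutation test, with Npas2 at r = 0.951 and Dbp at -0.843. Within experiment 1 (n = 6) none did, although Dbp was at r = -0.965 (exact permutation p = 0.00833, adjusted 0.0625). In both experiments the deviations were still those from the means of all 15 samples. Offsets between groups could therefore remain in these subsets and shift r. The test takes samples as independent, and whether RED and GREEN samples came from the same animals is not given. It also shuffles deviations freely between groups, as if all groups were equally spread. Arntl deviations ran from -1.083 to 1.094 in CTL and from -0.273 to 0.474 in RED and GREEN. The permutation p-values over the 15 samples may therefore be too small.

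**Figure D5:**
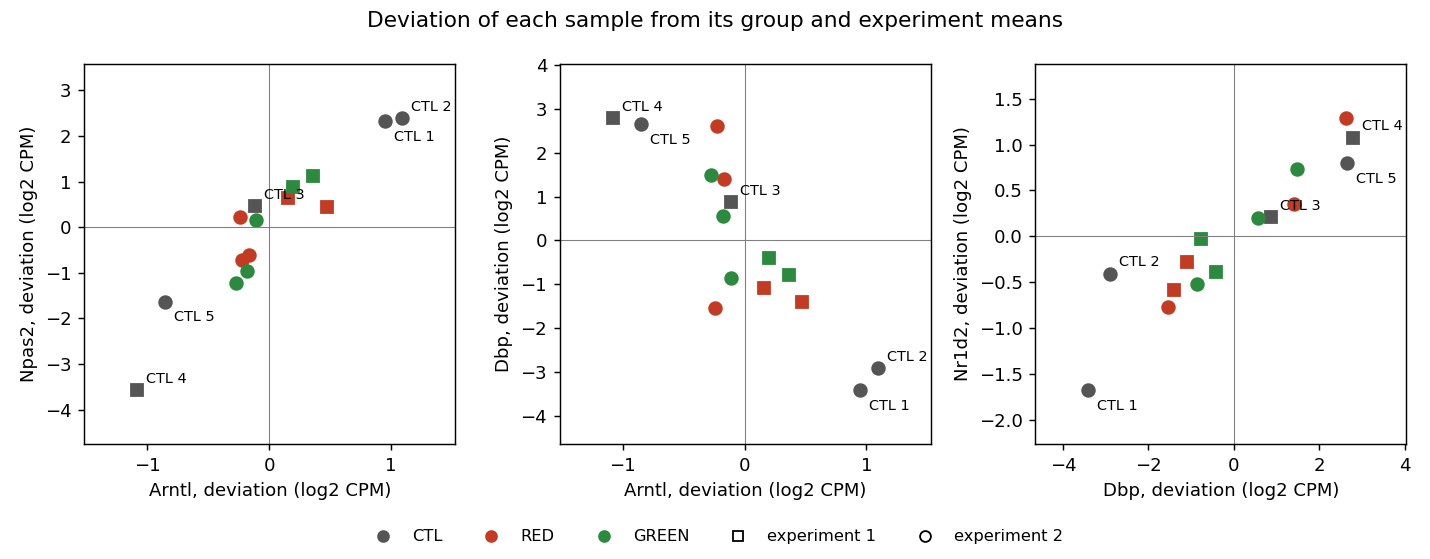
Deviation of each sample from its group and experiment means in log2 CPM, for Npas2 and Dbp against Arntl and for Nr1d2 against Dbp, with squares from experiment 1 and circles from experiment 2. CTL samples, named in the plot, take both ends of the x axis in all 3 panels; over the 15 samples r is 0.938, -0.871 and 0.936.

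The genes most like Dbp differed from those most like Arntl. Of the 16386 other genes tested, the 5 most like Dbp over the 15 samples were Tef (r = 0.943), which encodes a D-box factor related to DBP, Nr1d2 (0.936), Ciart (0.931), which encodes a repressor of the loop, Per3 (0.925) and Slx4ip (0.921). In the 10 RED and GREEN samples alone these were at 0.922, 0.958, 0.890, 0.872 and 0.706. Among the members, Nr1d1 (0.764) and Per2 (0.763) followed, and Npas2 (-0.878) and Arntl (-0.871) were among the 10 genes at the other end. The 5 most like Arntl were Npas2 (0.938), Dlg2 (0.914), Ccdc162 (0.913), Asap2 (0.900) and Rdm1 (0.894), and in RED and GREEN alone they were at 0.113, -0.255, 0.315, -0.218 and 0.696. These values describe the samples, which share libraries and scaling, and apart from the relations of Arntl with the other members given above they were not tested.

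RED and GREEN libraries could also be set side by side where the labels gave them the same code number and experiment, in 5 pairs that use RED 4 in both experiments. Dbp was higher in GREEN in 5 of 5 pairs, by 1.51 ± 1.10 on the log2 scale (mean ± SD), from 0.24 (RED 2 and GREEN 1) to 2.84 (RED 4 and GREEN 4 in experiment 1). Per3 (0.75 ± 0.70), Per2 (0.66 ± 0.57) and Npas2 (0.50 ± 0.41) were higher in GREEN in all 5 pairs as well, and Per1 (0.70 ± 0.94) in 4 of 5. Arntl (0.01 ± 0.25) was higher in 1 pair and Cry1 (-0.02 ± 0.23) in 2. These are descriptions, since the labels do not say what a shared code number means.

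Of 18 other genes of the clock, edgeR called 0 in RED versus CTL, where 5 had an unadjusted p under 0.05 and DESeq2 called 2 (Cry2 and Tef, both lower) and limma-voom 0. edgeR called 2 in GREEN versus RED, where 12.9% of all genes passed, and 6 in GREEN versus CTL, where 48.1% did. The median log2 fold changes were -0.11, -0.17 and -0.39 in the 3 comparisons. Csnk1e, which encodes a casein kinase that marks period proteins for removal, rose in GREEN over CTL by 1.85 (0.34, adjusted p = 6.6e-04), from 3.90 to 8.94 CPM to 11.8 to 38.0 CPM, with no overlap. This call held in all 15 fits that left out a sample, by library totals and in each experiment alone. Csnk1e also rose over RED (1.08, adjusted p = 0.0446), but only 3 of 15 such fits kept that call.

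Clock itself, the usual partner of BMAL1, was steadier, at 68.1 to 85.5 CPM in CTL, 62.2 to 82.8 in RED and 45.1 to 65.6 in GREEN. It fell by 0.42 in GREEN versus CTL (standard error 0.10, adjusted p = 0.00502) and by 0.39 versus RED (0.10, adjusted p = 0.0298), the latter call ending without RED 1 or GREEN 4, with no filter on low counts, in each experiment alone, with RED and GREEN samples only, under the replicate block and in every fit of the code number pairs. By library totals its sign turned in both comparisons, and it was called higher in GREEN versus CTL. Hlf, a further D-box factor, fell by 1.29 in GREEN versus CTL (0.37, adjusted p = 0.0105) and Rora by 0.46 (0.14, adjusted p = 0.0163), neither call holding by library totals. Cry2 (-0.67, adjusted p = 0.0485) and Bhlhe40 (-0.62, adjusted p = 0.0393) were the other 2, and their calls ended without CTL 4, GREEN 3, GREEN 4 or GREEN 5, among others. By library totals the signs of Rora, Cry2 and Bhlhe40 turned as well. In experiment 2 alone Csnk1e was the only one of these 18 genes that passed in GREEN versus CTL. Scaling mattered for the list as a whole: TMM gave 1 higher and 5 lower in GREEN versus CTL, and library totals gave 6 higher and 0 lower, since library totals moved the median of all genes in that comparison from 0.11 to 0.83.

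Of 20 liver genes known to follow the clock, edgeR called 0 in RED versus CTL, where 6 had an unadjusted p under 0.05 and DESeq2 called 3 and limma-voom 0. In GREEN versus RED 1 rose (12.9% of all genes passed). In GREEN versus CTL 1 rose and 11 fell, where 29.5% of all genes were called higher and 18.6% lower, and the list's median log2 fold changes were -0.38, -0.70 and -1.10 in the 3 comparisons. Wee1, a mitotic kinase gene driven by E-boxes, was the gene that rose, by 1.31 in GREEN versus CTL (standard error 0.30, adjusted p = 0.00331) and by 1.30 versus RED (0.31, adjusted p = 0.0155), the latter ending without RED 1, GREEN 3 or GREEN 4. Among those that fell in GREEN versus CTL were the nuclear receptor genes Nr1i3 (-1.86) and Ppara (-1.56), the glycogen synthase gene Gys2 (-1.22), Nampt (-0.71) of NAD synthesis, and Cyp2a5 (-2.63). By library totals the calls of Nr1i3, Ppara and Nampt ended, and the sign of Nampt turned. Elovl3 (-5.61) and Cyp2a4 (-5.84) had the largest fitted falls of the list, with standard errors of 1.92 and 2.29. Their calls held in 12 and 5 of the 15 fits that left out a sample. The CTL samples were split in both genes. Cyp2a4 held 494.3 and 756.4 CPM in CTL 2 and CTL 3, but 0.078, 0.228 and 0.089 in CTL 1, CTL 4 and CTL 5. Its median was 0.228 CPM in CTL and 2.84 in GREEN. Elovl3 held 634.7, 191.5 and 92.9 CPM in CTL 1, CTL 4 and CTL 5. In CTL 2 and CTL 3 it held 1.88 and 2.64, inside the GREEN range of 0.061 to 14.5. Both genes are known to differ between the sexes in mouse liver. By library totals 3 of the list rose and 4 fell, and in experiment 2 alone 0 passed, with 3 at an unadjusted p under 0.05.

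Markers of other cells moved with the groups. Of 10 hepatocyte markers 9 were lower in GREEN than in CTL (4 by library totals), and their summed level was 119998 to 181218 CPM in CTL, 90481 to 129644 in RED and 36944 to 86456 in GREEN. The summed level of 9 biliary markers was 8.66 to 294.0 CPM in CTL, 71.0 to 419.9 in RED and 497.2 to 8113 in GREEN. Cftr was at 0 in all CTL samples, and 9 of 9 markers were higher in GREEN than in CTL. Most of the highest sums was Spp1, which encodes osteopontin, at 283.4 CPM in CTL 5, 380.3 in RED 5 and 7420 in GREEN 4. Sox9 reached 32.3 CPM in CTL and 51.2 in RED. The other markers stayed at or below 1.973 CPM in CTL and RED, with Krt19 at most 0.057 and 0.895. Endothelial markers summed to 44.6 to 144.7, 407.1 to 2015 and 324.7 to 760.3 CPM, stellate cell markers to 34.1 to 76.1, 303.9 to 1685 and 836.6 to 2635 CPM, and macrophage markers to 36.3 to 100.6, 115.3 to 1537 and 137.6 to 524.3 CPM. Each of these 3 lists had 10 of 10 markers higher in RED than in CTL. The part of these cells in the Per1, Bhlhe41 and Csnk1e values was not tested, and in such bulk samples fewer cells of a type and less RNA per cell cannot be told apart.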

How the data were processed

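RNA of 15 samples was sequenced in 19 libraries from 150 ng of RNA each, with different library kits in the 2 experiments, per the labels' protocols. The authors deposited estimated counts per gene, not all whole and not normalized, for each experiment. Per the submitters' processing notes these come from kallisto 0.43.1 and GRCm38. The annotation behind them, how transcripts were summed to genes and whether strand was used were not given in the sources used here. Gene symbols were taken from GENCODE M21 by Ensembl identifier (34924 of 35274 identifiers matched), and lengths and overlaps of exons from the same annotation.

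Estimated counts were rounded. Samples were grouped by their titles, with the experiment 2 library where a sample had 2. Genes were filtered with filterByExpr (16387 left), scaled by TMM and tested with edgeR 4.0.16 (quasi-likelihood F test; group and experiment as terms; Benjamini-Hochberg over all genes tested; threshold 0.05). The standard error is the log2 fold change divided by the root of F. CPM are TMM-scaled. Deviations were log2 CPM (prior count 0.5) less group and experiment means, and the 9 correlations with Arntl used two-sided permutation tests (100000 permutations, exact for 9 samples or fewer). The means came from all 15 samples in every subset except RED and GREEN alone, where they were fitted anew. The test was tried on simulated counts for RED versus CTL with known changes among 16155 genes. Of 98 genes at a log2 change of 1.5, 55.1% were called, and of 98 at 3, 83.7% were. The changed genes were drawn at random from all filtered genes, whose median residual SD was 0.44, beside 0.86 for the members. These shares therefore do not give how often a change in a member would be called. Alternatives used DESeq2 1.42.0, limma 3.58.1, library totals, no filter, other libraries, blocks and left-out samples. The edgeR p-values set a group difference against the spread between samples left after the group and experiment terms. The permutation p-values give how often shuffled samples reached an r as large. Both take the samples as independent, and the shuffling also takes the groups as equally spread.

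All 10 members are named in each comparison, with genes past the threshold of the other clock genes (at most 6 per comparison by adjusted p) and the 5 genes most like Arntl and Dbp. Genes of the liver output list were named after their values were seen. A further clock gene and a further biliary marker, in the lists as first written, are not reported here and enter no list count; with the former, Cry2 would have fallen outside the rule. The members and lists were chosen with earlier results of these data known.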

Additional observations from a re-analysis of the deposited data

How the results depend on the processing

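Over all alternatives and left-out samples, 730 values of single members were computed, of which 654 kept their direction and their side of the threshold, 39 changed sign, 18 newly passed and 19 no longer passed. In none of the changed values was the cause tested. The number of members called in RED versus CTL (main value 1) was 0 by library totals, 4 by DESeq2, 0 by limma-voom, 4 in experiment 1 alone, 0 in experiment 2 alone and 0 to 3 when samples were left out. In GREEN versus RED (0) it was 1 by library totals and 1 with the experiment 1 libraries of samples that had both. In GREEN versus CTL (2) it was 1 by limma-voom, 1 with those experiment 1 libraries, 5 in experiment 1 alone, 1 in experiment 2 alone and 1 to 4 with samples left out. By library totals that number stayed at 2, with Cry1 called higher in place of Bhlhe41. Of the 9 correlations with Arntl (8) it was 0 in experiment 1, 4 in experiment 2 and 0 in RED and GREEN samples only; there Per1 turned to 0.047, Per2 to 0.252 and Per3 to 0.086. Without GREEN 4, which shares a code number with GREEN 3, Nr1d1 no longer passed (adjusted permutation p = 0.0551). Signs also changed as follows. In RED versus CTL in experiment 2 alone Arntl was -0.242, Npas2 -0.596, Cry1 -0.119 and Nr1d1 0.199. In GREEN versus RED Arntl was 0.397 and Cry1 0.339 by library totals, Arntl 0.160, Dbp -0.043, Nr1d1 -0.319 and Nr1d2 -0.024 in experiment 1, and Cry1 0.050 in experiment 2. In GREEN versus CTL in experiment 2 Arntl was -0.303, Npas2 -0.268, Per2 0.367, Cry1 -0.069 and Nr1d1 0.478; by library totals Per2 was 0.749 and Nr1d1 0.412, and Per2 was 0.176 by limma-voom and 0.316 with the experiment 1 libraries. With samples left out, values ran in RED versus CTL from -0.296 to 0.632 for Npas2; in GREEN versus RED from -0.284 to 0.053 for Cry1, -0.187 to 0.340 for Nr1d1 and -0.021 to 0.673 for Nr1d2; and in GREEN versus CTL from -0.065 to 0.423 for Arntl, -0.376 to 0.207 for Per2 and -0.061 to 0.284 for Cry1.

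The replicate block was tried with both kinds of number in the labels. Same-numbered samples by title did not all deviate together across genes (correlations of -0.202 to 0.540). RED and GREEN libraries of the same code number gave 0.165, -0.072, 0.505, 0.291 and 0.727. Libraries of the same sample in both experiments gave only 0.241 (CTL 5), 0.578 (RED 2), 0.396 (RED 3) and 0.565 (RED 4). Such correlations therefore cannot decide whether a shared number is a pairing, and the main fit took neither number as one. With the title numbers as a replicate block 1 member was called in GREEN versus CTL (Bhlhe41, -1.48, no longer passed, adjusted p = 0.0778) and no other count of member calls changed. With the 5 code number pairs as a replicate block 0 members passed in GREEN versus RED, the lowest adjusted p being 0.0617 for Dbp, and Arntl was 0.007 (0.003 in the same libraries without the block). With 4 such pairs, without code 4 of experiment 1, Cry1 was 0.063.

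Over all genes the share of calls that were higher was 87.7% in RED versus CTL (96.7% by library totals, 74.3% by DESeq2), 75% in GREEN versus RED (99.1% and 59.1%) and 61.3% in GREEN versus CTL (95.6% by library totals). The number of all genes called, 2652, 2114 and 7890 in these comparisons, moved by more than 1.5 times in GREEN versus RED to 4329 by library totals, 3822 by DESeq2, 4141 with the experiment 1 libraries, 5351 and 77 in experiments 1 and 2 alone and 1283 without CTL samples (866 to 3515 with single samples left out), and fell in experiment 2 alone to 1207 in RED versus CTL and 3481 in GREEN versus CTL. Low counts limit Bhlhe41, Dbp and Npas2 most.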
